A study of Mus musculus with 12 samples.

Results

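Leukocytes leave the blood through vessel walls that carry adhesion molecules, and 10 genes of that vessel surface were examined in the periocular skin of filaggrin-deficient mice with and without MyD88: Sele, Selp, Ackr1, Icam1, Vcam1, Icam2, Pecam1, Cdh5, Plvap and Esm1. They were taken by symbol from a table of 21247 genes, and all 10 were found and tested. The mice were 6 weeks old and on a BALB/c background. Those labelled ft/ft lack working filaggrin through a point mutation that arose spontaneously, and no longer carry the matted mutation of the flaky tail strain. Those labelled ft/ftMyD88-/- carry the same filaggrin mutation and come from an in-house cross with mice that lack MyD88, the adaptor of Toll-like and interleukin-1 receptors, in every cell type. Both groups therefore share the filaggrin mutation, and neither the 4 WT samples nor a MyD88-deficient group with intact filaggrin was analysed here. Each group held 4 libraries of bulk RNA, and the study counts 4 mice in each group.

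In inflamed skin, E-selectin and P-selectin on the endothelium catch passing leukocytes and let them roll. Chemokines then activate integrins on the leukocyte, which grip ICAM-1, ICAM-2 and VCAM-1, and the cell crosses the wall past PECAM-1 and VE-cadherin at the endothelial junctions. E-selectin, ICAM-1 and VCAM-1 are classically induced by inflammatory cytokines, P-selectin is also stored ready-made in endothelial granules, and ICAM-2, PECAM-1 and VE-cadherin are constitutive.

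The stretches around the start sites of 4 of these genes are shown because they belong to both selectins, to the atypical chemokine receptor Ackr1 and to the inducible ligand Icam1, genes on which the comparisons below turn. RefSeq promoters (GRCm38.p6) were matched for 5 of the 10 genes, these and Esm1, each running from 250 bases before to 50 bases after the start. They are written 5′ to 3′ on the gene's own strand, with motif matches in capitals. Sele lies at chr1:164047984-164048283 (+), Selp at chr1:164115014-164115313 (+), Ackr1 at chr1:173333454-173333753 (-) and Icam1 at chr9:21015690-21015989 (+).
Sele: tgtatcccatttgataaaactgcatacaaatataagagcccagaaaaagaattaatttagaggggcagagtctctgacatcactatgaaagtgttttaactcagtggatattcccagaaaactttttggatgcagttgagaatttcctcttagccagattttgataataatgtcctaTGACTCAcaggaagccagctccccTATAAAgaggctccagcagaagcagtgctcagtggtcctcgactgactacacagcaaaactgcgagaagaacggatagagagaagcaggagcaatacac
Selp: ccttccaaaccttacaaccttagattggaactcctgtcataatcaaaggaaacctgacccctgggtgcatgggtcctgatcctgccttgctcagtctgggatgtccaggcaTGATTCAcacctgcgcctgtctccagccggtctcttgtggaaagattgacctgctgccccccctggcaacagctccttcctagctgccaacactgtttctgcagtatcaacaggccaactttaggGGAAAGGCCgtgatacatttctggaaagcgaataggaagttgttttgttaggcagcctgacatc
Ackr1: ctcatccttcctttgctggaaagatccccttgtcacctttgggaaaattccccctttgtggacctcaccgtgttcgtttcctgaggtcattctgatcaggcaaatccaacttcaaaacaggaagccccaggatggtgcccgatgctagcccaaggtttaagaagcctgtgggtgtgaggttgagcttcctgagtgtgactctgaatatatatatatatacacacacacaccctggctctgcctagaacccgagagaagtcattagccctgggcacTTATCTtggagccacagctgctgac
Icam1: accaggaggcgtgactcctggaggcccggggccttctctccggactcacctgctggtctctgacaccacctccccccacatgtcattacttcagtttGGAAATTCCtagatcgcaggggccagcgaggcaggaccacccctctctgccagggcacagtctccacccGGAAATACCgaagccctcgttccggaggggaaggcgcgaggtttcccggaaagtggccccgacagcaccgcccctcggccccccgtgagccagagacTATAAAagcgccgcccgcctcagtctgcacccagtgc
In the Sele promoter the capitals mark an AP-1-type match (TGANTCA) at -73 and a TATA box (TATAAA) at -49, counted from the start site to the first base of the match. The Selp stretch held an AP-1-type match at -139 and, on the opposite strand, an NF-kappa B-type match (GGNNTTTCC) at -14. Icam1 held NF-kappa B-type matches on the opposite strand at -153 and -84 and TATAAA at 14 bases past the start. Ackr1 held only a GATA-type match (AGATAA), on the opposite strand at 26 bases past the start. Searched on both strands of 32851 promoters of the same length, the NF-kappa B-type letters stood in 5.82%, the AP-1-type letters in 7.81%, TATAAA in 13.6%, AGATAA in 11.2% and the ETS-type letters CCGGAAG in 8.86%. The Esm1 promoter held none of these 5 motifs, and CCGGAAG was found in none of the 5 promoters. Such matches describe the letters and are not evidence of binding. The lack of a match, as for the NF-kappa B-type letters in Sele, does not show that a site is absent.

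Levels below are CPM, the reads of a gene as a share of its library, with library sizes scaled by the trimmed mean of M-values (TMM), written as mean ± SD (n = 4). The labels were checked against the genes they name. Myd88 read 30.7 ± 4.74 CPM in ft/ft and more, 41.2 ± 7.29 CPM, in the libraries labelled as lacking it (log2 fold change 0.42, edgeR adjusted p = 0.0484), and since a count over the whole gene does not show which exons are present, it does not check a deletion of part of the gene. Directions throughout rest on the labels as given. Flg was measured at 103 ± 69.8 and 242 ± 39.5 CPM (edgeR adjusted p = 0.120), and a point mutation need not change its count. The mice are labelled female, yet the ft/ft libraries held 1, 0, 0 and 0 reads of Xist and 65.0 ± 8.97 CPM of the Y-linked Ddx3y, and the ft/ftMyD88-/- libraries 49.4 ± 13.3 CPM of Xist and 0.147 ± 0.225 CPM of Ddx3y. Genotype and sex therefore cannot be told apart in any comparison here. The ft/ft libraries totalled 18941705 to 29255129 reads and the ft/ftMyD88-/- libraries 15802957 to 27037997, and the 10 genes rest on 22 to 3040 reads per library.

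Of the 10 genes, Ackr1 alone passed the test, and it was lower in the libraries labelled ft/ftMyD88-/-. By edgeR's quasi-likelihood test at an adjusted p under 0.05, 0 of the 10 were higher and 1 was lower, where 10.9% of the 20454 genes tested were higher, 12.3% were lower and 23.3% moved either way. At an unadjusted p under 0.05 the counts were 1 higher and 2 lower, beside 18.4% and 18.5% of all genes. DESeq2 called 1 higher and 1 lower (14% and 13.5% of all genes), and limma voom called 0 higher and 1 lower (10.7% and 12.3%). The median log2 fold change (ft/ftMyD88-/- over ft/ft, here and below) was -0.01 over the 10 genes and 0.01 over all genes tested. In bulk tissue, fewer endothelial cells and less RNA per endothelial cell cannot be told apart.

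**Figure D1:**
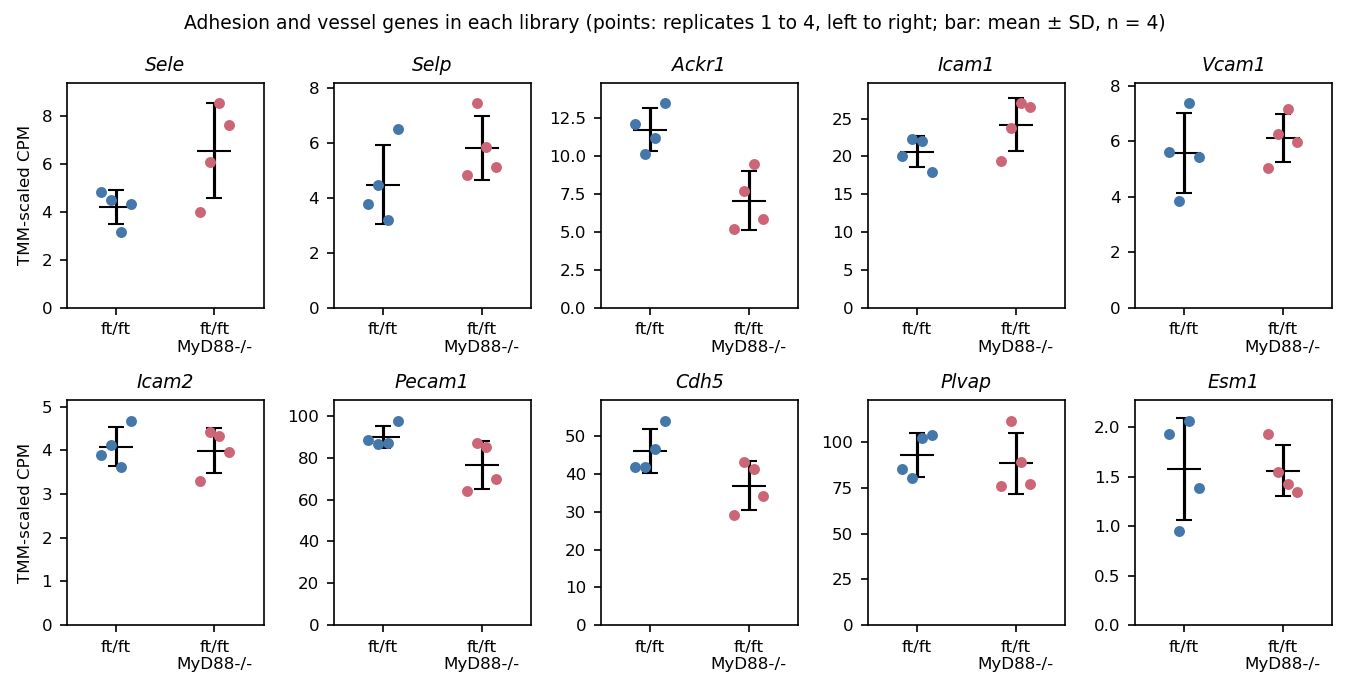
TMM-scaled CPM (y axes from 0) of each adhesion and vessel gene in the 4 ft/ft and 4 ft/ftMyD88-/- libraries, with group mean ± SD. Ackr1 is the panel in which the groups separate, at 10.1 to 13.5 for ft/ft against 5.21 to 9.49 for ft/ftMyD88-/-, while in Sele 3 of the 4 ft/ftMyD88-/- libraries lie above every ft/ft library.

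Sele encodes E-selectin, which is made by activated endothelium, and lies on GRCm38 chr1:164048234-164057677 (+ strand, GENCODE M21). In the libraries labelled ft/ft (replicates 1 to 4) Sele read 4.84, 4.51, 3.18 and 4.33 CPM, and in those labelled ft/ftMyD88-/- 3.99, 6.10, 8.54 and 7.62 CPM. Replicates 2, 3 and 4 of ft/ftMyD88-/- stood above every ft/ft library, while replicate 1 lay among them. The means were 4.22 ± 0.723 and 6.56 ± 1.99 CPM, a fitted 1.55-fold difference (log2 0.63, SE 0.23, 95% interval 0.14 to 1.12), which missed the threshold (edgeR adjusted p = 0.0610). Sele passed with DESeq2 (adjusted p = 0.0266) but not with limma voom (adjusted p = 0.0966) or the replicate block in edgeR (adjusted p = 0.124). With each library left out in turn it passed in 1 of 8 edgeR fits, that without replicate 1 of ft/ftMyD88-/- (log2 0.81, adjusted p = 0.00885), and over the 8 fits the log2 difference ran from 0.49 to 0.81 and the adjusted p up to 0.148. The gene rests on 57 to 251 reads per library.

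Selp encodes P-selectin of endothelial and platelet granules and lies next to Sele at chr1:164115264-164150026 (+). It read 3.77, 4.47, 3.18 and 6.48 CPM in ft/ft and 4.82, 7.42, 5.85 and 5.12 CPM in ft/ftMyD88-/-. All 4 ft/ftMyD88-/- libraries were above the ft/ft median, but replicate 4 of ft/ft exceeded 3 of them. The log2 difference was 0.37 (SE 0.22, interval -0.11 to 0.85), which did not pass (edgeR adjusted p = 0.253). It was 0.61 without replicate 4 of ft/ft and 0.23 without replicate 2 of ft/ftMyD88-/-, and did not pass with any 1 library left out. Of the exon bases of Selp, 4.21% and 9.93% lie opposite exons of Gm16587 and Gm16548 on the other strand, and the TruSeq kit named in the methods does not mark strand, so reads of both strands cannot be told apart there.

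Ackr1 encodes the atypical chemokine receptor of venular endothelium, also made by erythroid cells, which binds inflammatory chemokines without classical signalling. It lies at chr1:173331886-173333750 (-). The ft/ft libraries read 12.1, 10.1, 11.2 and 13.5 CPM and the ft/ftMyD88-/- libraries 5.21, 7.68, 9.49 and 5.85 CPM, and no ft/ftMyD88-/- library reached the lowest ft/ft library. Over all genes tested, 14.2% had every ft/ftMyD88-/- library below every ft/ft library and 12.5% showed the reverse. Ackr1 fell by 0.72 on the log2 scale (SE 0.18, interval -1.12 to -0.33, edgeR adjusted p = 0.0134), and its level was 1.65-fold higher in ft/ft. An exact two-sided permutation test of the 8 log2 CPM values gave p = 0.0286, the smallest that 4 against 4 libraries allow. Any gene whose groups do not overlap gives this value, so it adds nothing to the separation itself. The call held with each library left out in turn (log2 -0.89 to -0.60, edgeR adjusted p 0.00382 to 0.0466).

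Cadm3, a cell adhesion gene, overlaps Ackr1 on the same strand. In GENCODE M21 361 exon bases (25.7% of the exon bases of Ackr1) belong to both, so reads there cannot be assigned to 1 gene. HTSeq by default leaves such reads out of both counts if the annotation used has the same overlap, which was not checked. Cadm3 was more abundant and also lower, at 110 ± 15.2 CPM in ft/ft and 71.1 ± 19.5 CPM in ft/ftMyD88-/- (log2 -0.62, edgeR adjusted p = 0.0346), and its part in the Ackr1 difference was not tested. Erythroid transcripts also differed between the groups, and their part in the Ackr1 difference was not tested. The summed level of 6 erythroid genes was 172, 85.9, 289 and 626 CPM in ft/ft and 71.8, 94.4, 85.3 and 132 CPM in ft/ftMyD88-/-. The sum of replicate 2 of ft/ft lay inside the ft/ftMyD88-/- range, and its Ackr1 level, 10.1 CPM, was the lowest of the ft/ft libraries. Replicate 4 of ft/ft had the highest sum and the highest Ackr1 level, 13.5 CPM. Replicate 3 of ft/ft had a higher sum than replicate 1 but less Ackr1, at 11.2 against 12.1 CPM. In ft/ftMyD88-/-, replicate 4 had the highest sum, 132 CPM, with Ackr1 at 5.85 CPM. Replicate 3 had the highest Ackr1 of that group, 9.49 CPM, at a sum of 85.3 CPM. Replicate 1 was lowest in both, at 71.8 CPM and 5.21 CPM. Of the 5 erythroid genes tested 0 were higher and 2 lower, Hbb-bt (3.34 ± 2.47 to 0.663 ± 0.240 CPM, log2 -2.32, edgeR adjusted p = 0.0211) and Alas2 (12.8 ± 6.76 to 4.31 ± 0.349 CPM, log2 -1.57, edgeR adjusted p = 0.00701). Over all genes 10.9% were higher and 12.3% lower in the edgeR fit. At an unadjusted p under 0.05 the erythroid counts were 1 and 3, by DESeq2 1 and 3, and by limma voom 0 and 1. The gene on the other side was Slc4a1, the erythrocyte anion exchanger, at 1.41 ± 0.530 and 4.22 ± 2.92 CPM (log2 1.56, edgeR adjusted p = 0.0555). The most abundant, Hbb-bs and Hba-a1, encode beta and alpha globin and did not pass (log2 -1.51 and -1.93, edgeR adjusted p = 0.152 and 0.0809).

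Icam1, the inducible ligand of the leukocyte integrin LFA-1, lies at chr9:21015985-21028817 (+). It read 20.02, 22.3, 22.1 and 17.9 CPM in ft/ft and 19.4, 23.8, 27.0 and 26.5 CPM in ft/ftMyD88-/-. Replicates 2, 3 and 4 of ft/ftMyD88-/- were above all ft/ft libraries and replicate 1 was not, the same libraries as for Sele. The log2 difference was 0.23 (SE 0.12, interval -0.03 to 0.50) and did not pass (edgeR adjusted p = 0.191). Exons of Gm47079 on the opposite strand cover 11.7% of its exon bases.

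Vcam1, the ligand of the integrin VLA-4, lies at chr3:116109949-116129688 (-). It read 5.62, 3.86, 7.36 and 5.44 CPM in ft/ft and 5.04, 6.25, 7.14 and 5.98 CPM in ft/ftMyD88-/-, and the ft/ft range enclosed every ft/ftMyD88-/- value. Its log2 difference was 0.14 (interval -0.28 to 0.56, edgeR adjusted p = 0.643). Icam2, the constitutive LFA-1 ligand at chr11:106377656-106388075 (-), read 3.90, 4.11, 3.63 and 4.68 CPM in ft/ft and 3.29, 4.41, 4.32 and 3.96 CPM in ft/ftMyD88-/-. The Icam2 groups overlapped, with a log2 difference of -0.03 (interval -0.38 to 0.32, edgeR adjusted p = 0.912) whose sign turned under other scalings. These intervals leave room for changes of either sign.

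The junction genes were lower on average in the libraries labelled ft/ftMyD88-/-, with overlap. Pecam1 encodes PECAM-1 of endothelial junctions, platelets and some leukocytes and lies at chr11:106654217-106750628 (-). It read 88.3, 86.6, 86.8 and 97.7 CPM in ft/ft and 64.1, 86.9, 85.3 and 69.9 CPM in ft/ftMyD88-/-. Replicates 1 and 4 of ft/ftMyD88-/- were lowest, whereas replicate 2 lay within the ft/ft range. The log2 difference was -0.23 (SE 0.11, interval -0.46 to 0.00, edgeR adjusted p = 0.138).

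Cdh5 encodes VE-cadherin, the endothelial adherens-junction cadherin, and lies at chr8:104101625-104144511 (+). Its values were 41.9, 42.0, 46.7 and 54.2 CPM in ft/ft and 29.1, 43.1, 41.4 and 34.2 CPM in ft/ftMyD88-/-. As for Pecam1, replicates 1 and 4 of ft/ftMyD88-/- were lowest and 3 of the 4 lay below every ft/ft library. The log2 difference was -0.32 (SE 0.13, interval -0.60 to -0.03, edgeR adjusted p = 0.0972).

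Plvap encodes the diaphragm protein of fenestrae and caveolae in capillaries and venules and lies at chr8:71497765-71511752 (-). It read 85.2, 80.2, 102 and 104 CPM in ft/ft and 76.0, 112, 89.1 and 76.9 CPM in ft/ftMyD88-/-. The highest value of all and the lowest both came from ft/ftMyD88-/- libraries, and the log2 difference was -0.07 (interval -0.36 to 0.22, edgeR adjusted p = 0.746). Esm1, which encodes the secreted proteoglycan endocan of sprouting endothelial tip cells, lies at chr13:113209659-113218098 (+). It was the gene with the fewest reads of the 10, at 22 to 45 per library, with means of 1.58 ± 0.516 and 1.56 ± 0.259 CPM (log2 0.00, interval -0.57 to 0.57, edgeR adjusted p = 0.996) and an interval that leaves room for a change of either sign.

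Levels were compared between genes per kilobase of merged exon (RPKM, over all 8 libraries). Plvap led at 45.6, followed by Pecam1 at 13.4, Cdh5 at 9.89, Ackr1 at 6.68, Icam1 at 5.14, Icam2 at 2.12, Sele at 1.85, Selp at 1.16, Esm1 at 0.749 and Vcam1 at 0.658. Exon lengths came from GENCODE M21, which need not be the annotation used for the counts, so the order depends on those lengths. Vcam1, with 8870 merged exon bases, stood at 5.57 and 6.10 CPM in ft/ft and ft/ftMyD88-/-, and Esm1 at 1.58 and 1.56 CPM. In the libraries labelled ft/ft each gene from Plvap to Icam2 had a range clear of the next gene in the order, whereas Sele overlapped Selp, Selp overlapped Esm1 and Esm1 overlapped Vcam1. In those labelled ft/ftMyD88-/- the ranges of Ackr1 and Icam1 overlapped, at 3.71 to 6.76 and 4.45 to 6.20 RPKM, and so did those of Icam2 and Sele, while Selp and Esm1 no longer did.

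To read the genes against other endothelial transcripts, their levels were set against 18 pan-endothelial genes, none of them among the 10. Those 18 summed to 342 to 439 CPM in ft/ft and 285 to 384 CPM in ft/ftMyD88-/-. Of them 1 was higher, Egfl7, and 4 were lower, beside 10.9% and 12.3% of all genes. Their median log2 was -0.16 beside 0.01 over all genes. Robo4, a receptor that stabilises vessels, went from 9.35 ± 1.60 to 6.06 ± 0.711 CPM (log2 -0.62, edgeR adjusted p = 0.0123). Kdr, the main VEGF receptor, went from 35.1 ± 3.48 to 24.0 ± 3.57 CPM (log2 -0.55, edgeR adjusted p = 0.00674). Eng and Ptprb, the most abundant of the list, did not pass (log2 -0.11 and -0.03). With library sizes as the only scaling 1 of the 18 was higher and 0 lower. Under that scaling 4638 of 20454 genes were higher and 1326 lower, and the median of all genes lay 0.18 higher on the log2 scale.

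Against the mean log2 level of those 18 genes, the groups separated in both selectins and in Ackr1. Sele stood at -1.75, -1.72, -2.54 and -2.15 in ft/ft and at -1.67, -1.44, -1.01 and -0.89 in ft/ftMyD88-/- (log2 of the gene over the pan-endothelial mean), so that every ft/ftMyD88-/- library was above every ft/ft library, by as little as the step from -1.72 to -1.67. Selp stood at -2.11, -1.73, -2.54 and -1.57 in ft/ft and at -1.40, -1.16, -1.56 and -1.46 in ft/ftMyD88-/-, also without overlap and by a step from -1.57 to -1.56. Ackr1 stood at -0.43, -0.55, -0.73 and -0.52 in ft/ft and at -1.29, -1.11, -0.86 and -1.27 in ft/ftMyD88-/-. Ackr1 stayed below without overlap, so that its difference was present also relative to the mean of these 18 genes. It was not set against venous genes alone, and a change in the share of venules was not tested. Thus 2 of the 10 genes were above and 1 was below without overlap, where 12.8% of all genes were above and 5.16% below. The group means differed by 0.78 for Sele, 0.59 for Selp and -0.58 for Ackr1 on the log2 scale, and the groups of the other 7 genes overlapped.

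Fitted in edgeR with that scaling, Sele was higher (log2 0.78, SE 0.22, adjusted p = 0.00782) and Ackr1 lower (log2 -0.57, SE 0.19, adjusted p = 0.0304). Selp and Icam1 did not pass (log2 0.55 and 0.40, edgeR adjusted p = 0.0740 and 0.127), and neither did Pecam1 or Cdh5 (log2 -0.06 and -0.14, edgeR adjusted p = 0.860 and 0.631). That scaling called 13.2% of all genes higher and 4.32% lower and also raised the median of all genes by 0.18. Its error is common to all genes and the fit moderates the spread with 93.5 degrees of freedom against 12.3 under TMM, so its adjusted p-values are less secure than those of the TMM fit.

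**Figure D2:**
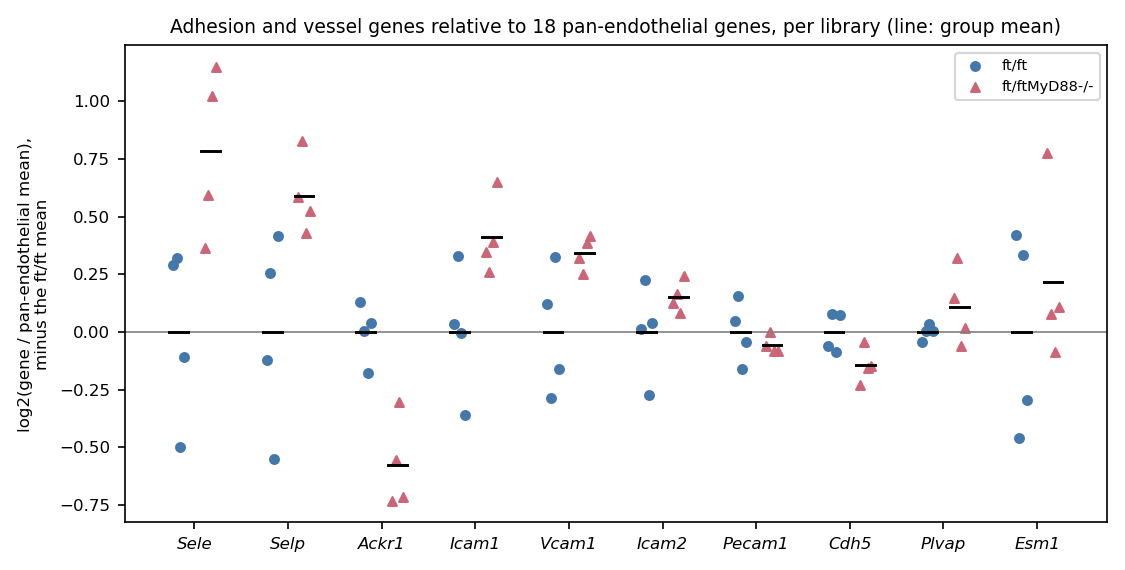
Level of each adhesion and vessel gene relative to the mean log2 level of 18 pan-endothelial genes, with the mean of the ft/ft libraries set to 0 (y axis, log2). Circles are ft/ft and triangles ft/ftMyD88-/- libraries, with a line at each group mean: Sele and Selp lie higher by 0.78 and 0.59 and Ackr1 lower by a log2 difference of -0.58, each without overlap.

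**Figure D3:**
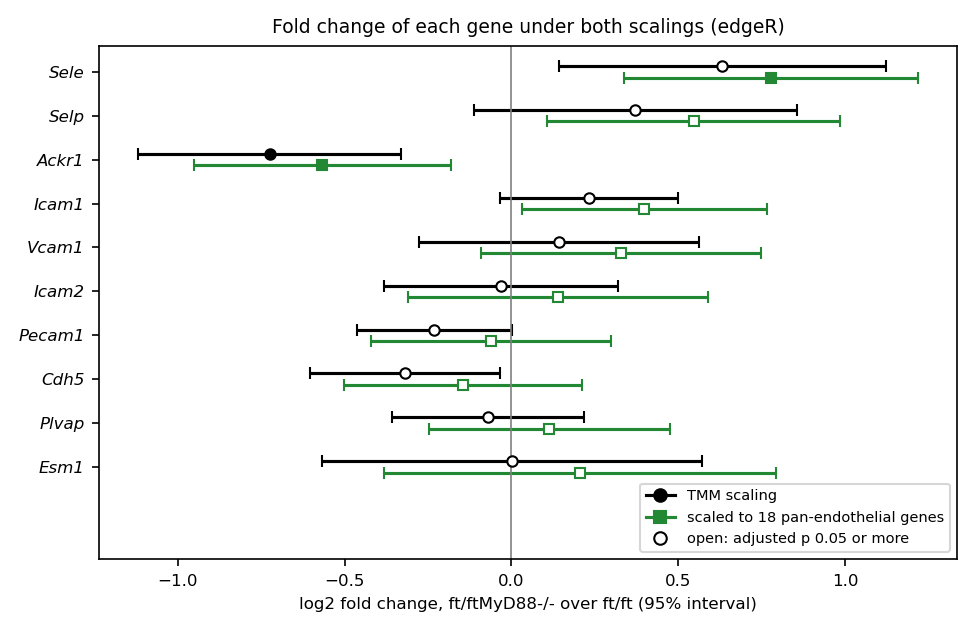
Fitted log2 fold change of each gene with its 95% interval (x axis) under TMM scaling (black circles) and under scaling to 18 pan-endothelial genes (green squares), filled where the edgeR adjusted p was under 0.05. Ackr1 is filled under both scalings, at -0.72 and -0.57, and Sele under the second, at 0.78 against 0.63 with TMM.

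The binding partners of these genes were next examined. Of 14 tested genes for selectin ligands and their glycosylation, 6 were higher and 1 lower, beside 10.9% and 12.3% of all genes. The median log2 was 0.38 beside 0.01 over all genes. The list includes ligands made by endothelium (Cd34, Podxl, Glycam1, Madcam1) and widely expressed genes (Cd44, Glg1, B4galt1). Among the 6, Glycam1 had means of 0.00909 and 0.156 CPM, near or below the level of 3 reads, and Fut7 of 0.392 and 0.907 CPM. Gcnt1, an enzyme that builds the sugar branches on which selectin ligands form, rose from 1.99 ± 0.364 to 6.79 ± 1.60 CPM (log2 1.77, edgeR adjusted p = 0.000227). Selplg, which encodes the P-selectin ligand PSGL-1, rose from 14.8 ± 1.80 to 22.3 ± 2.55 CPM (log2 0.60, edgeR adjusted p = 0.00470). The groups did not overlap in either gene. The gene called lower was the abundant Glg1, which encodes an E-selectin ligand of the Golgi and cell surface, at 212 ± 28.6 and 147 ± 11.2 CPM (log2 -0.52, edgeR adjusted p = 0.00482).

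Tested next were 9 integrin genes for the ICAM-1 and VCAM-1 receptors and their activators. Of these 1 was higher and 1 lower (median log2 0.07), near the 10.9% and 12.3% of all genes. DESeq2 gave the same counts for this list. With limma voom the counts were 1 and 0. Library size as the only scaling gave 3 and 0, beside 4638 and 1326 of the 20454 genes tested. Itgal, the alpha chain of LFA-1, rose from 6.69 ± 1.83 to 15.97 ± 2.68 CPM without overlap (log2 1.26, edgeR adjusted p = 0.000946). Itgax, the CD11c chain of dendritic and some other myeloid cells, fell from 11.3 ± 2.49 to 8.02 ± 0.750 CPM (log2 -0.49, edgeR adjusted p = 0.0432). Pan-leukocyte genes were higher in 3 of 6 and lower in 0 of 6, with 3 and 0 at an unadjusted p under 0.05 and also by DESeq2 and limma voom (median log2 0.40). Ptprc, the CD45 phosphatase, rose from 22.2 ± 1.85 to 36.1 ± 4.55 CPM (log2 0.70, edgeR adjusted p = 0.00112), and Coro1a, a leukocyte actin regulator, from 47.2 ± 5.96 to 74.4 ± 12.1 CPM (log2 0.66, edgeR adjusted p = 0.00349). Lcp1 did not pass (log2 0.23). More leukocytes and more RNA per leukocyte cannot be told apart here either.

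Among 9 tested cytokines known to induce or modify endothelial adhesion molecules, 4 were higher and 0 lower, beside 10.9% and 12.3% of all genes. The counts were the same at an unadjusted p under 0.05 and by DESeq2, and 3 and 0 by limma voom (median log2 0.50). Il17a read 0.110 ± 0.129 CPM in ft/ft, at about the level of 3 reads, and 2.33 ± 0.819 CPM in ft/ftMyD88-/- (edgeR adjusted p = 0.000537). Il1b rose from 3.802 ± 3.45 to 31.0 ± 12.5 CPM (log2 3.00, edgeR adjusted p = 0.0250), without overlap. In the study's own qPCR of periocular skin, Il17a and Il6 were significantly induced, whereas Il1b did not differ significantly. Osm and Il6 were the other genes called, both from levels near detection. The Il6 groups overlapped. Its ft/ftMyD88-/- libraries read 0.0438, 1.43, 0.102 and 0.732 CPM, and the highest ft/ft library read 0.112 CPM. Tnf, the classical inducer of E-selectin, read 2.14 ± 0.690 and 3.07 ± 0.418 CPM and did not pass (log2 0.50, edgeR adjusted p = 0.146).

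Calls among genes of the vessel wall depended on the scaling. In the TMM fit 10.9% of all genes were higher and 12.3% lower. Of 12 tested junction and caveolar genes 0 were higher and 3 lower by edgeR, DESeq2 and limma voom alike, with 0 and 5 at an unadjusted p under 0.05 (median log2 -0.24). Cav1, the coat protein of caveolae, fell from 272 ± 40.6 to 174 ± 46.2 CPM (log2 -0.65, edgeR adjusted p = 0.0254), and Ctnnd1, the p120 catenin that binds cadherins, from 21.7 ± 1.14 to 15.7 ± 2.00 CPM (log2 -0.46, edgeR adjusted p = 0.0107). Epithelium also makes these proteins. With library sizes as the only scaling 1 of the 12 was higher and 0 lower, beside 4638 and 1326 of the 20454 genes tested. Of 16 angiogenic genes 1 was higher, the growth factor Vegfa (log2 0.51, edgeR adjusted p = 0.00399), and 3 were lower (median log2 -0.05), against 2 higher and 0 lower with library sizes only. Angpt1, the ligand of the endothelial receptor Tie2, fell from 9.42 ± 1.77 to 5.89 ± 1.67 CPM (log2 -0.67, edgeR adjusted p = 0.0323), and Aplnr, the apelin receptor, from 12.8 ± 2.33 to 8.84 ± 1.59 CPM (log2 -0.53, edgeR adjusted p = 0.0395).

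Markers of vessel types were read the same way, beside 10.9% of all genes higher and 12.3% lower under TMM. With library sizes only, where 4638 of 20454 genes were higher and 1326 lower, the venous list gave 1 higher and 0 lower. The lymphatic list gave 1 and 1, the arterial 1 and 0, the capillary 0 and 0 and the mural 3 and 0. Under TMM, of 4 venous genes 0 were higher and 1 lower (1 and 3 at an unadjusted p under 0.05, 1 and 3 by DESeq2, 0 and 1 by limma voom, median log2 -0.32). That gene, Vwf for von Willebrand factor, fell from 49.6 ± 6.09 to 35.4 ± 5.09 CPM (log2 -0.48, edgeR adjusted p = 0.0136), and Ephb4 missed the threshold (log2 -0.24, edgeR adjusted p = 0.0594). Of 6 lymphatic genes 0 were higher and 1 lower (1 and 1 at an unadjusted p under 0.05 and by DESeq2, 0 and 1 by limma voom, median log2 -0.16). Reln, which lymphatic endothelium secretes, fell from 16.5 ± 3.86 to 9.14 ± 2.06 CPM (log2 -0.84, edgeR adjusted p = 0.00923), while the abundant Ccl21a and Mmrn1 did not pass (log2 -0.18 and 0.04). Of 6 arterial genes none passed by edgeR, DESeq2 or limma voom, with 1 higher and 1 lower at an unadjusted p under 0.05 (median log2 0.07, Efnb2 -0.16, Sema3g 0.38). Of 3 capillary genes none passed with any of these tools and 0 had an unadjusted p under 0.05 (median log2 0.30, Rgcc 0.09, Gpihbp1 0.30). Of 9 mural genes 2 were higher and 2 lower (median log2 -0.17), among them the contractile actin Acta2 (119 ± 33.7 to 171 ± 15.1 CPM, log2 0.52, edgeR adjusted p = 0.0441), the pericyte channel subunit Abcc9 (41.7 ± 7.17 to 26.2 ± 7.03 CPM, log2 -0.67, edgeR adjusted p = 0.0256) and the abundant Notch3 (log2 -0.37, edgeR adjusted p = 0.0493).

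**Figure D4:**
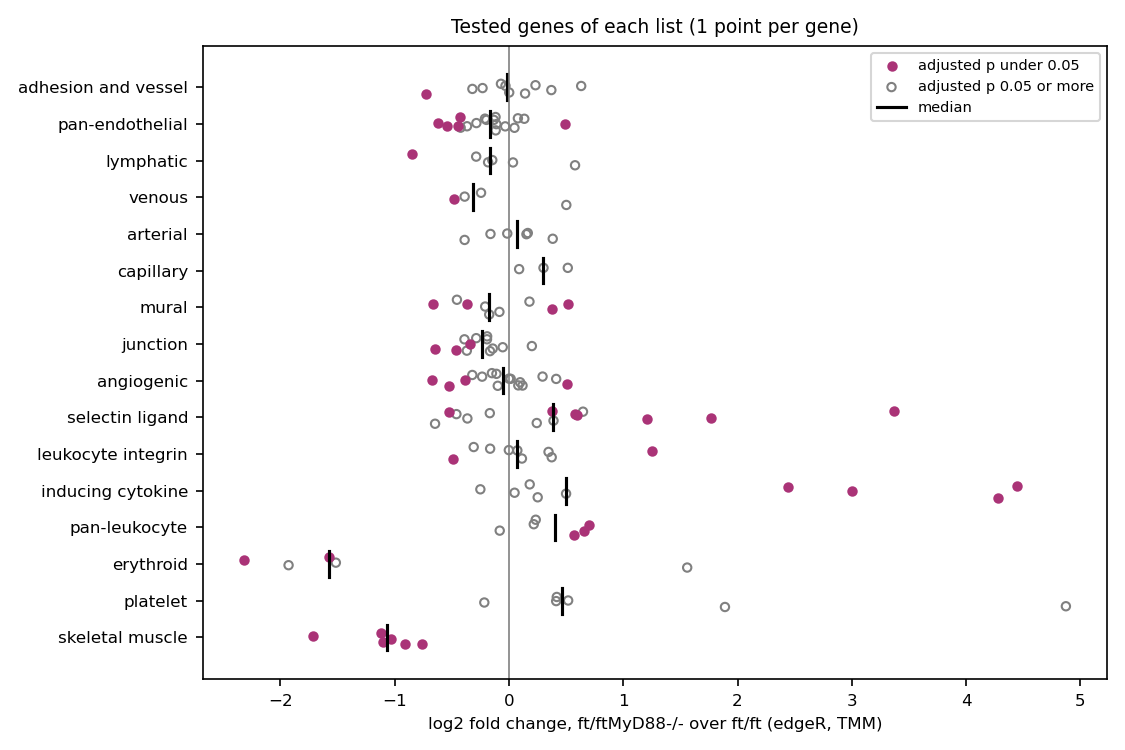
Fitted log2 fold change (x axis, edgeR with TMM) of every tested gene in the adhesion and vessel set and in 15 comparison lists, 1 point per gene, filled where the adjusted p was under 0.05, with a bar at each list's median. The adhesion and vessel genes lie around 0 with a median of -0.01, and the called genes furthest to the right belong to the selectin ligand and inducing cytokine lists, several of them at low levels.

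Other tissue in the biopsies differed between the groups as well, and its part in the values above was not tested. Over all genes 10.9% were higher and 12.3% lower in the edgeR fit. Skeletal muscle genes were lower in 6 of 6 and higher in 0 of 6 (median log2 -1.06), with sums of 7324 to 9764 CPM in ft/ft and 2805 to 5196 CPM in ft/ftMyD88-/-; the counts were the same at an unadjusted p under 0.05, by DESeq2 and by limma voom. Of 5 fibroblast genes 0 were higher and 2 lower (median log2 -0.40, sums of 8643 to 18617 and 4293 to 5861 CPM), and of 4 keratinocyte genes also 0 and 2 (median log2 -0.34, sums of 19930 to 26404 and 16677 to 20939 CPM), in both lists unchanged at an unadjusted p under 0.05 and by both other tools. Of 5 macrophage genes 1, C1qa, was higher and 0 lower with every tool (median log2 -0.03), and of 5 adipocyte genes 0 passed in either direction with any tool or at an unadjusted p under 0.05 (median log2 -0.18). Platelets carry P-selectin and PECAM-1: of 6 platelet genes none passed by edgeR or limma voom, 1 was higher by DESeq2 and 2 at an unadjusted p under 0.05 (median log2 0.47). The abundant platelet genes were Pf4 (12.7 ± 1.68 and 16.8 ± 5.74 CPM) and Ppbp, which ranged from 0.238 to 92.5 CPM in ft/ftMyD88-/-.

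As a description of profiles, the genes whose centred log2 levels over the 8 libraries lay nearest to the mean of Pecam1, Cdh5 and Icam2, among 14663 genes with a mean of at least 1 CPM, were Phf11c, Pdia5, Esyt1, Fcrls and RP24-180B11.5 (root mean square difference 0.0610 to 0.0809 on the log2 scale). Those nearest to the mean of Sele and Selp were Fli1, Cd209b, Timd4, Lst1 and Napb (0.1138 to 0.1504). Fli1, an ETS transcription factor of endothelial and blood cells, was called higher (8.26 to 11.6 CPM, log2 0.49, edgeR adjusted p = 0.0291). It was picked for its likeness to Sele and Selp, so its direction is not separate support. Cd209b, Timd4, Lst1 and Napb were not called (edgeR adjusted p 0.169 to 0.526).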

How the data were processed

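RNA of periocular skin was sequenced in 8 libraries, with 4 in each of the groups ft/ft and ft/ftMyD88-/-. The authors deposited raw counts per gene, without normalization; per the study's methods, polyA-selected single-end reads were mapped to GRCm38.p6 (HISAT, tophat2) and tallied by HTSeq with its defaults. The labels also name Cell Ranger and a protocol for fixed tissue, which the methods for these libraries do not. The assembly was NCBI's; tool versions are not given in the sources used here. HTSeq by default counts by strand and leaves out reads that overlap more than 1 gene, and the TruSeq kit named does not mark strand.

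Groups were taken from the labels. Genes with at least 10 counts over the 8 libraries (20454 of 21247) were tested with edgeR 4.0.16 (TMM, robust quasi-likelihood fit, Benjamini-Hochberg adjustment over all genes, two-sided, adjusted p under 0.05) in R 4.3.3. DESeq2 1.42.0, limma voom (limma 3.58.1), other scalings, filters and thresholds, a replicate block and each library left out were alternatives. The scripts were tested on simulated data. The permutation test and the figures used scipy 1.17.1 and matplotlib 3.10.9. Replicate numbers did not pair the libraries (same-number correlations of deviations -0.311 to 0.0612), and no replicates were duplicates. Gene positions are from GENCODE M21, promoters from RefSeq. The 10 genes and 19 lists (156 genes, 2 matched by an older symbol; Chst4, Nectin2, Icam4, Gp1bb and Gp6 without a match) were chosen with earlier results of these data known, and 1 further list gene is not reported here. Named were all 10 genes, per list the 2 largest called changes at a mean of at least 1 CPM, and per cell type the 2 most abundant genes, with 5 nearest profiles each for 2 reference sets and Myd88, Flg, Xist and Ddx3y. Egfl7, Vegfa, Glg1, Glycam1, Fut7, Slc4a1, Osm, Il6, Tnf, Cadm3 and the transcripts antisense to Selp and Icam1 were named after their values were seen. Library size, and polyA selection if done as the methods state, fix every value as a share of the library. Intervals cover the spread between these libraries.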

Additional observations from a re-analysis of the deposited data

Results flagged for a closer look

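In groups of 4 libraries, 1 library was set apart where its gap to the nearest other over the group's range exceeded Dixon's 95% critical value. This held for 7 of 124 groups over 62 named genes, where chance gives about 1 in 20. Among the adhesion and vessel genes it held for 1 of 20 groups: Pecam1 in replicate 4 of ft/ft, at 97.7 CPM with the nearest library at 88.3 CPM. Without that library Pecam1 still missed the threshold, in the same direction. The others were Ppbp in replicate 2 of ft/ft (2.51 CPM), Hbb-bt in replicate 1 of ft/ftMyD88-/- (0.307 CPM), the adipocyte genes Cidec and Plin1 in replicate 3 of ft/ftMyD88-/- (171 and 138 CPM), Xist in replicate 1 of ft/ft (0.0429 CPM) and Ddx3y in replicate 1 of ft/ftMyD88-/- (0.482 CPM).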

How the results depend on the processing

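Ackr1 was called lower in all 16 refits under other tools, scalings, filters, the replicate block and left-out libraries (log2 -0.89 to -0.54), with an adjusted p that reached 0.05 after rounding when library size was the only scaling. At an adjusted p under 0.01 0 of the 10 genes were lower, and likewise 0 when a minimum of 1 on the size of the log2 change was added at 0.05. The number higher, 0 in the TMM fit, was 1 with DESeq2 (Sele), 2 with library size only (Sele and Icam1) and 1 with scaling to pan-endothelial genes (Sele), and 0 to 1 with each library left out, the 1 being Sele without replicate 1 of ft/ftMyD88-/-. The number lower stayed at 1 with each library left out. With the replicate block 0 were higher and 1 lower, with 1895 and 2144 of all genes against 2239 and 2525 without it. Signs turned only for genes near 0: Icam2 (0.15 with library size only, 0.14 with pan-endothelial scaling, -0.0797 to 0.0580 with libraries left out), Plvap (0.11 and 0.11, -0.20 to 0.00194), Vcam1 (-0.00229 to 0.30) and Esm1 (-0.19 to 0.15). Over all genes, higher and lower calls were 4638 and 1326 with library size only, 2703 and 883 with pan-endothelial scaling, 2861 and 2763 with DESeq2, 951 and 1350 at 0.01, and 752 and 520 at a log2 change of 1. Without replicate 4 of ft/ft 1464 and 1882 were called. Where a call changed, the cause was not tested. Depth limits Esm1, Sele, Selp and Icam2 most, with as few as 22 to 65 reads in a library.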
